A study of Mus musculus with 6 samples.

Results

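Chemokine receptors are cell-surface proteins, coupled to G proteins, that steer leukocytes along gradients of small secreted ligands called chemokines. In CD8 T cells they decide where a cell travels: the ligands of CXCR3 are made in inflamed tissue, CXCR6 binds CXCL16, CX3CR1 binds fractalkine (CX3CL1) and marks cytotoxic effector cells, CXCR4 binds CXCL12 of marrow and stroma, and CXCR5 binds CXCL13 of B cell follicles. The receptors described here were Cxcr3, Cxcr4, Cxcr5, Cxcr6, Ccr2, Ccr4, Ccr6, Ccr8 and Cx3cr1, and the measurement was the openness of the chromatin in and around their genes in tumor-infiltrating CD8 T cells. A region of the deposited count table (build GRCm38) was taken for a receptor where it lay inside that gene's body, or, outside every protein-coding gene, where that gene was the nearest within 100 kb. The rule gave 75 of the 74686 regions, 26 inside genes and 49 between genes. Cxcr4 had 13 of them, Cx3cr1 10, Cxcr3 and Cxcr5 9 each, Ccr2, Ccr4 and Ccr6 8 each, and Cxcr6 and Ccr8 5 each.

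Open chromatin was profiled by ATAC-seq, in which a transposase cuts accessible DNA and leaves sequencing adapters in it. All 6 libraries came from OT1 cells, CD8 T cells whose transgenic receptor sees a peptide of ovalbumin. They were purified by flow cytometry, through CD8 and CD45.1 (an allele that tells transferred cells from the host's), out of tumors of the B16-OVA-GP61 melanoma line. The line carries ovalbumin and GP61, an epitope seen by the transgenic receptor of SMARTA CD4 T cells. In 3 libraries no SMARTA cells were present, and in the other 3 they were. The labels give no age, strain or number of animals, and do not say whether replicates came from separate mice, so the p-values rest on the spread among libraries, which may be technical. The comparison asks how the chromatin of tumor-specific CD8 T cells differs when CD4 T cells against the same tumor are there.

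Libraries held between 16595779 and 27182809 counts, and their median region between 62 and 114. Of the variance, 58.3% lay on a first principal component that parted the groups, and the second, with 19.2%, set replicate 2 of the group with SMARTA cells apart from its group. Summed accessibility over the regions of CD8 T cell marker genes (in CPM, counts scaled to a common library size) spanned 1144 to 1228 without and 1047 to 1272 with SMARTA cells. These sums ran over 75 regions, with a mean of 15.9 CPM per region. CD4 T cell marker genes, with 23 regions and 10.2 CPM per region, summed to 193 to 233 CPM without and 243 to 259 CPM with SMARTA cells. Of these regions, Cd40lg had 4 opened and 1 closed, Cd4 had 1 closed, and Zbtb7b and Foxp3 had no called one. B cell markers spanned 33.9 to 45.4 CPM without and 26.9 to 33.7 CPM with SMARTA cells, and the defining genes Cd79a and Ms4a1 had no region. Natural killer cell markers spanned 275 to 288 and 299.6 to 324 CPM, and melanoma markers 105 to 108 and 109.8 to 126 CPM, with no region at Tyr. Klrb1c held 15 of the natural killer regions, 1 opened and 1 closed, and Ncr1 held 1, not called (log2 fold -0.48). None of the 11 melanoma regions was called, and their median log2 fold was -0.21. The regions of smallest p had negative log2 folds in Dct, Mlana, Pmel and Sox10 and a positive one in Mitf. Myeloid markers (55.8 to 60.5 and 53.9 to 64.1 CPM, no region at Lyz2) and dendritic cell markers (108 to 147 and 91.4 to 128 CPM) overlapped between the groups. The part of such cells in the results was not tested.

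With SMARTA cells, 10 receptor regions opened and 13 closed, and the other 52 did not pass the threshold. A region is called opened or closed where edgeR's quasi-likelihood test, adjusted by Benjamini-Hochberg over all 74686 regions, gave a p under 0.05, and log2 folds are positive where accessibility was higher with SMARTA cells. The opened regions were 13.3% of the 75, against 4.68% of all regions, and the closed ones 17.3%, against 10.4% of all regions. The receptors were chosen with earlier results of these data known, so these shares are description only. Closing was the larger change in size: the 13 closed regions had a median log2 fold of -1.40, from -2.62 to -0.79, and the 10 opened ones a median of 0.90, from 0.50 to 1.17. The median over all 75 regions was 0.05, beside 0.01 over the whole table. Closed regions changed at least 2-fold in 10 cases and opened regions in 2. The 2-fold counts, and the medians and ranges of called regions, were not made over all regions. The larger size of closing can therefore not be called particular to the receptors. All 3 libraries with SMARTA cells lay above all 3 without in 21 of the 75 regions (15.7% of all regions did so) and below them in 19 (18.5% of all regions). ATAC-seq of a cell population cannot tell a smaller share of cells with an open site from less opening in each cell. With 1 library left out at a time, 10 to 13 regions were called closed and 5 to 14 opened. The opened count was 6 without any one library of the group without SMARTA cells and 5 without replicate 3 of the group with them. The whole table's opened count fell too, from 3497 to 1809, 1273 and 1224 without replicates 1, 2 and 3 of the former group. It was 1787 without replicate 3 of the latter. In all 6 such repeats 10 of the 13 closed and 4 of the 10 opened regions were called.

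**Figure D1:**
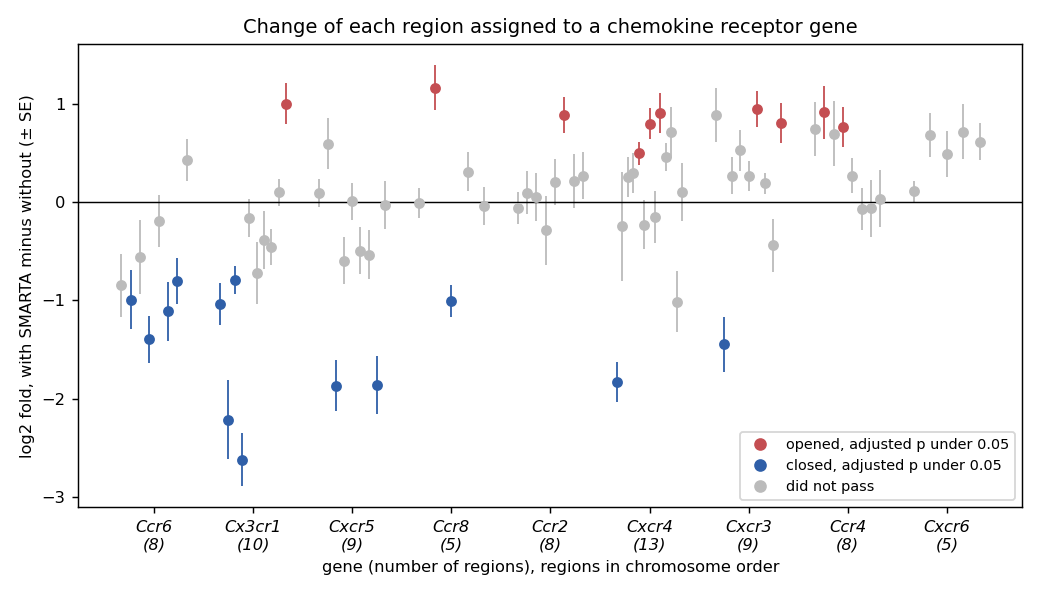
Log2 fold with against without SMARTA cells (vertical axis) for each of the 75 regions, grouped by receptor gene, with colour for opened, closed and not called. Cx3cr1 holds the lowest point, at -2.62, and 4 genes hold both opened and closed regions.

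Within the family, both directions were met in the same genes. Cxcr3, Cxcr4, Ccr8 and Cx3cr1 each had opened and closed regions, Ccr2 and Ccr4 had opened ones, Ccr6 and Cxcr5 had closed ones, and Cxcr6 had no called region. Of the 26 regions inside genes, 2 opened and 7 closed, and of the 49 between genes, 8 opened and 6 closed. Called shares of all regions inside and between genes were not counted, so this split cannot be called particular to the receptors. Among regions of genes with an annotated start, 2 of 10 opened and 1 of 11 closed ones lay within 1 kb of it, beside 9 of all 66. Cxcr5, with 9 regions and 2 closed ones, had no start in the promoter annotation used and was left out of these distances. Median distance from the start was 7.88 kb for the opened and 11.9 kb for the closed regions.

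The promoters are shown for the 5 receptors whose promoter window was covered, at least in part, by a tested region, since they let the called (Cxcr4, Ccr4) and the not called (Cx3cr1, Cxcr6, Cxcr3) be set side by side. Each line is the 250 bases before the annotated start, 5′ to 3′ on the gene's strand, from RefSeq's promoter table of GRCm38.p6. Capitals mark matches, on either strand, to motifs of factors active in T cells: RUNX (TGTGGT), AP-1 (TGANTCA), NFAT (GGAAAA), ETS (CCGGAAG), TCF/LEF (CTTTGA), FOXO (GTAAACA) and T-box (AGGTGTGA).
Cxcr4 promoter (chr1:128592300-128592549, minus strand): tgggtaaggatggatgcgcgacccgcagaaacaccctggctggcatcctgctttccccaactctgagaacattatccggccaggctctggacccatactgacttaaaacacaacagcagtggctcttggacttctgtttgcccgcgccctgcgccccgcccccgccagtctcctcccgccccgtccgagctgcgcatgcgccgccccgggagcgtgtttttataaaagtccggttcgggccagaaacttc
Ccr4 promoter (chr9:114496545-114496794, minus strand): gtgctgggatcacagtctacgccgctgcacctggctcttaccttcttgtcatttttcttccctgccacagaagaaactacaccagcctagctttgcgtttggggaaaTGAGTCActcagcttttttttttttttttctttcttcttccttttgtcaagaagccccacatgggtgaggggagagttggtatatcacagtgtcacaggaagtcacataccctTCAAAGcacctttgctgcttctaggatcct
Cx3cr1 promoter (chr9:120068297-120068546, minus strand): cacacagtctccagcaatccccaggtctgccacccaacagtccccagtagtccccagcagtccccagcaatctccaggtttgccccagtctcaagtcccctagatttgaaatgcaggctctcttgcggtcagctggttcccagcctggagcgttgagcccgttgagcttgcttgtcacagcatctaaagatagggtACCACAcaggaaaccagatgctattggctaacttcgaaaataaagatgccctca
Cxcr6 promoter (chr9:123806227-123806476, plus strand): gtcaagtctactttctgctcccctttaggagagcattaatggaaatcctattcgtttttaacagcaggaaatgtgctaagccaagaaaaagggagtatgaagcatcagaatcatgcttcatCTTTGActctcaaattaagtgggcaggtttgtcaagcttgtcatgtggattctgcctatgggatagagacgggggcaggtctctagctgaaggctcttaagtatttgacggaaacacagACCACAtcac
Cxcr3 promoter (chrX:101734148-101734397, minus strand): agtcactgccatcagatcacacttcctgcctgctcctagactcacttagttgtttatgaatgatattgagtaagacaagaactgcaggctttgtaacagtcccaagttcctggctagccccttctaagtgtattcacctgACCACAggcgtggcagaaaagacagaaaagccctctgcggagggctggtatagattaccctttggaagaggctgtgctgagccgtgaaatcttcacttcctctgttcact

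The Ccr4 promoter held an AP-1 match, TGAGTCA, that begins 143 bases before the start, and a TCF/LEF match 30 bases before it. Of all 32851 promoters of the table, 6.75% hold an AP-1 match and 13.8% a TCF/LEF match in the same window. A RUNX match stood in the promoters of Cx3cr1, Cxcr6 and Cxcr3, at 54, 10 and 110 bases before the start, and in 14.05% of all promoters. Cxcr6 also held a TCF/LEF match at 129 bases. No match was found in the Cxcr4 window. NFAT, ETS, FOXO and T-box letters, found in 20.4%, 6.91%, 3.17% and 1.12% of all promoters, were in none of these 5 windows. A match is a description of letters and does not show that a factor binds.

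Cx3cr1, the fractalkine receptor, is known in CD8 T cells as a marker of differentiated, cytotoxic effector cells. It held 4 closed regions, 3 of them inside the gene (chr9:120048683-120068296), and 1 opened region upstream. At the region with the strongest closing, chr9:120056197-120056597, inside the gene and 11.9 kb past the start, accessibility was 36.8, 26.7 and 27.8 CPM in the 3 libraries without SMARTA cells and 7.23, 3.37 and 4.19 CPM in those with them. The groups did not overlap, and the highest library with SMARTA cells stood far below the lowest without. The mean fell from 30.4 ± 5.5 to 4.93 ± 2.0 CPM (SD, n = 3), a 6.16-fold lower level (log2 fold -2.62 ± 0.27 (SE), edgeR adjusted p = 0.00038). A peak was called there by the authors in all 3 lists without SMARTA cells and in 0 of 3 with them. Their lists held 65020 to 82089 peaks, and not every called region differed in them. Peaks stood in 3 of 3 lists of both groups at the 3 opened Cxcr4 regions, the opened Ccr2 region and the Ccr4 promoter. The same held at the most accessible regions of Cx3cr1, Ccr8 and Ccr6 and at the closed region inside Cxcr5.

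The region at chr9:120049385-120049785, also inside Cx3cr1, had 7.07, 14.2 and 14.5 CPM without SMARTA cells and 2.70, 1.08 and 3.74 CPM with them. Again no library crossed over (log2 fold -2.21 ± 0.40, edgeR adjusted p = 0.0051). Peaks were called there in 3 of 3 lists without and 2 of 3 with SMARTA cells. The most accessible Cx3cr1 region, chr9:120054818-120055218, lies between the others and closed less in relative terms, from 68.5, 63.0 and 61.0 CPM to 47.0, 30.1 and 34.1 CPM. Its log2 fold was -0.79 ± 0.14 (edgeR adjusted p = 0.0051). The last closed region, 8.96 kb outside the gene at chr9:120039323-120039723, had 4.28 to 6.38 CPM without and 2.29 to 2.77 CPM with SMARTA cells (log2 fold -1.03 ± 0.21, edgeR adjusted p = 0.010). All 4 were called whichever library was left out.

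The Cx3cr1 promoter did not pass the test. Its region, chr9:120068116-120068516, had 14.5, 9.65 and 12.3 CPM without SMARTA cells and 13.8, 5.96 and 8.12 CPM with them, and the groups overlapped (log2 fold -0.38 ± 0.29, edgeR adjusted p = 0.43). Upstream, 11.8 kb before the start at chr9:120079936-120080336, accessibility rose from 4.03, 2.84 and 3.47 CPM to 7.13, 7.58 and 6.03 CPM. The log2 fold was 1.00 ± 0.21 (edgeR adjusted p = 0.0096), and the groups did not overlap, with a peak in 1 of 3 lists without and 3 of 3 with SMARTA cells. That call was lost when replicate 2 of the libraries without SMARTA cells was left out (adjusted p = 0.055).

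Ccr8, the receptor for CCL1 that is known from regulatory T cells and skin-homing T cells, is the next chemokine receptor gene on the chromosome, 23.8 kb from Cx3cr1. Its most accessible region, chr9:120091041-120091441, lies 0.892 kb before the start and closed. It had 35.4, 39.9 and 50.5 CPM without SMARTA cells and 24.7, 17.9 and 19.8 CPM with them. No library with SMARTA cells reached the lowest without, and the mean fell from 41.9 ± 7.7 to 20.8 ± 3.5 CPM (log2 fold -1.01 ± 0.16, edgeR adjusted p = 0.0029). Further upstream, 7.52 kb before the start at chr9:120084409-120084809, the direction was the opposite. There the libraries without SMARTA cells had 2.49, 2.46 and 3.55 CPM and those with them 7.08, 7.04 and 5.09 CPM. This was the largest opening of the 10 (log2 fold 1.17 ± 0.23, edgeR adjusted p = 0.0078), with a peak in 0 of 3 lists without and 3 of 3 with SMARTA cells. It lies between the 2 genes, as does the opened region assigned to Cx3cr1, and the region between them, at chr9:120082718-120083118, did not pass the test (log2 fold -0.01 ± 0.15, edgeR adjusted p = 0.99).

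**Figure D2:**
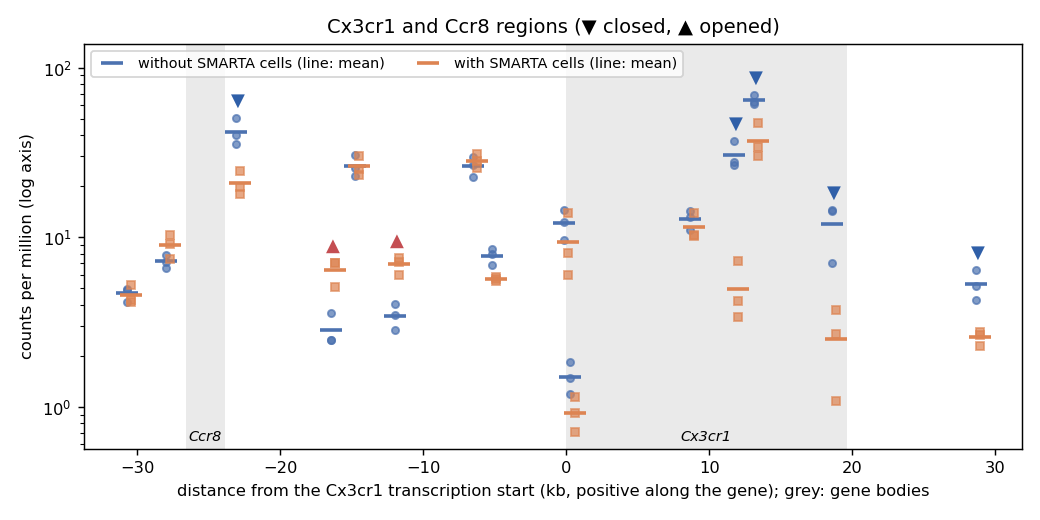
Accessibility at the Cx3cr1 and Ccr8 genes, with position along the locus in kb from the Cx3cr1 start (horizontal axis) against CPM on a log axis for each of the 6 libraries. Libraries with SMARTA cells lie below the others at the 3 closed regions inside Cx3cr1, at 7.23, 3.37 and 4.19 CPM in the strongest region, and above them at the 2 opened regions between the genes.

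Ccr6, the receptor for CCL20, is known from Th17 and other type 17 T cells and from mucosal homing. It had 4 closed regions of 8, 3 inside the gene (chr17:8236041-8258519) and 1 upstream. At chr17:8239147-8239547, inside the gene, the libraries without SMARTA cells had 3.88, 3.15 and 2.64 CPM and those with them 1.27, 1.32 and 1.09 CPM. The groups did not overlap (log2 fold -1.40 ± 0.24, edgeR adjusted p = 0.0038), and this region was called whichever library was left out. The most accessible Ccr6 region, chr17:8251703-8252103, fell from 10.5, 13.9 and 13.5 CPM to 7.18, 2.95 and 7.26 CPM (log2 fold -1.11 ± 0.30, edgeR adjusted p = 0.034). The remaining closed regions, at chr17:8254916-8255316 and chr17:8233641-8234041, were weak and lay near the threshold. Their means fell from 2.29 to 1.32 CPM and from 1.48 to 0.74 CPM. The log2 folds were -0.80 ± 0.23 and -0.99 ± 0.30 (edgeR adjusted p = 0.044 and 0.049). The second had peaks in 2 of 3 lists without and 0 of 3 with SMARTA cells, and was called in 0 of the 6 leave-one-out repeats. The count of closed Ccr6 regions was 1 without any library of the group without SMARTA cells or without replicate 3 of the group with them, 2 without replicate 1 of the latter, and 2 with DESeq2, loess scaling or the replicate block. The region nearest an annotated Ccr6 start, chr17:8234661-8235061, lies upstream and did not pass the test. Its log2 fold was negative, and the groups overlapped. The nearby gene Cep43, 39.6 kb away, had 4 closed regions of 8, and Sft2d1 1 closed of 5. Mpc1, nearer at 25.3 kb, had 1 region, which opened. Rnaset2a, Prr18 and T2, also within 100 kb, had no called region.

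Cxcr5, the receptor for CXCL13 that draws cells to B cell follicles, had 2 closed regions of 9. At chr9:44526340-44526740, which spans the higher-coordinate end of the gene (chr9:44511787-44526444), the libraries had 11.4, 9.27 and 14.1 CPM without and 3.51, 2.11 and 3.78 CPM with SMARTA cells. The groups were well apart, with means of 11.6 ± 2.4 and 3.13 ± 0.90 CPM (log2 fold -1.87 ± 0.26, edgeR adjusted p = 0.0014). A weak region 28.6 kb beyond the gene, chr9:44554997-44555397, fell from 1.94, 2.00 and 2.52 CPM to 0.458, 0.722 and 0.599 CPM (log2 fold -1.86 ± 0.30, edgeR adjusted p = 0.0029), and its peaks were in 3 of 3 lists without and 0 of 3 with SMARTA cells. Closing did not run through the gene. Its most accessible region, chr9:44515425-44515825, had 23.3, 28.2 and 29.9 CPM without and 29.9, 32.2 and 24.96 CPM with SMARTA cells, and the groups overlapped (log2 fold 0.10 ± 0.14, edgeR adjusted p = 0.71).

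Cxcr4, the CXCL12 receptor of naive, memory and marrow-homing cells, had the most regions of the family, 13, all of them between genes. It had 3 opened regions upstream and 1 closed region far on the other side. The opened region next to the start, chr1:128592333-128592733, covers 217 of the 250 promoter bases printed above. It had 45.9, 42.2 and 37.5 CPM without SMARTA cells and 49.3, 67.3 and 60.5 CPM with them, which is the smallest opening of the 10 (log2 fold 0.50 ± 0.12, edgeR adjusted p = 0.021). The groups did not overlap, though the lowest library with SMARTA cells came close to the highest without. At chr1:128605803-128606203, 13.7 kb before the start, the libraries had 14.5, 19.99 and 16.99 CPM without and 26.5, 30.3 and 32.9 CPM with SMARTA cells (log2 fold 0.80 ± 0.16, edgeR adjusted p = 0.0074). At chr1:128611761-128612161, 19.7 kb before the start, they had 11.6, 16.6 and 10.8 CPM and 22.1, 21.4 and 29.8 CPM (log2 fold 0.91 ± 0.21, edgeR adjusted p = 0.016). Neither region overlapped between groups.

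The most accessible region of Cxcr4, chr1:128614798-128615198, stood at 71.9, 80.8 and 58.8 CPM without and 77.8, 97.7 and 115 CPM with SMARTA cells. It did not pass the test (log2 fold 0.46 ± 0.14, edgeR adjusted p = 0.055). The closed region, chr1:128518674-128519074, lies 69.1 kb from the gene and had 7.57, 7.42 and 6.74 CPM without SMARTA cells. With them it had 1.73, 2.41 and 1.98 CPM, which left the groups far apart (log2 fold -1.83 ± 0.20, edgeR adjusted p = 0.00047). Peaks were called there in 3 of 3 lists without and 2 of 3 with SMARTA cells. Of the opened regions, the one 13.7 kb before the start was called in every leave-one-out repeat. The count of opened Cxcr4 regions was 1 without replicate 3 of either group and 2 when replicate 1 of the libraries without SMARTA cells was left out.

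**Figure D3:**
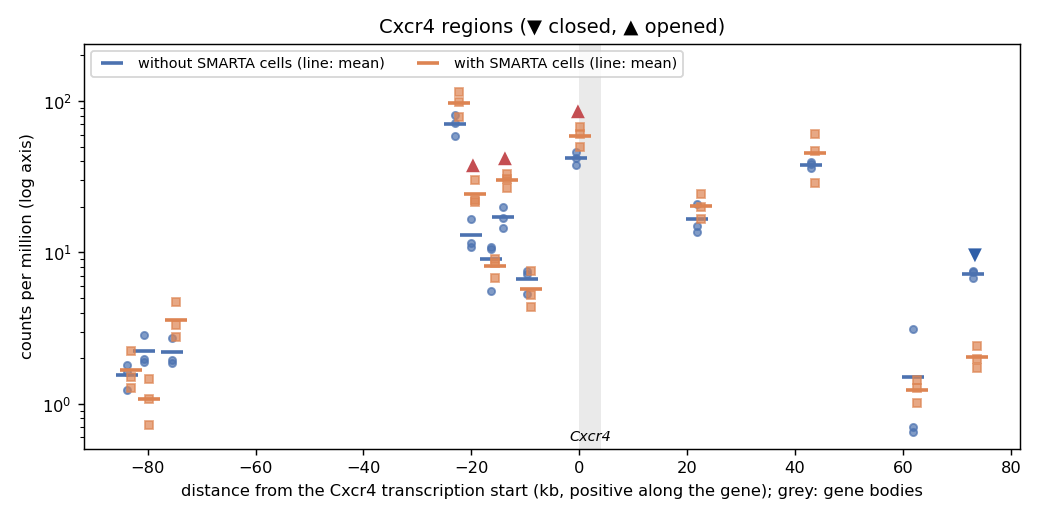
Accessibility at the Cxcr4 locus, with distance from the Cxcr4 start in kb (horizontal axis) against CPM on a log axis for each of the 6 libraries. Libraries with SMARTA cells are above the others at the 3 opened regions and below them at the closed region, where they stand at 1.73, 2.41 and 1.98 CPM.

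Cxcr3, the receptor for CXCL9, CXCL10 and CXCL11 that type 1 effector T cells use to enter inflamed tissue, had 2 opened regions upstream and 1 closed region past its other end. Just upstream, 1.00 kb before the start at chrX:101734950-101735350, the libraries had 6.32, 5.50 and 5.70 CPM without and 11.8, 10.4 and 11.6 CPM with SMARTA cells. Libraries of a group were close together and the groups far apart (log2 fold 0.95 ± 0.18, edgeR adjusted p = 0.0065), and peaks were called in 0 of 3 lists without and 3 of 3 with SMARTA cells. The other opened region, chrX:101759821-101760221, had 1.69, 2.19 and 1.86 CPM and 3.72, 3.01 and 3.33 CPM (log2 fold 0.80 ± 0.21, edgeR adjusted p = 0.026). Its call was kept only when replicate 2 of the group with SMARTA cells was the library left out.

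The closed region, chrX:101730065-101730465, lies 1.07 kb past the end of Cxcr3. It had 5.13, 10.8 and 10.1 CPM without and 3.16, 3.13 and 3.29 CPM with SMARTA cells (log2 fold -1.45 ± 0.28, edgeR adjusted p = 0.0069), with peaks in 3 of 3 lists and 0 of 3. The promoter region itself, chrX:101733941-101734341, had 19.97, 19.9 and 20.3 CPM and 27.8, 19.4 and 25.04 CPM. Those groups overlapped and the region did not pass the test (log2 fold 0.27 ± 0.15, edgeR adjusted p = 0.29). Nor did the most accessible Cxcr3 region, chrX:101737189-101737589, with 29.8 to 33.4 CPM without and 34.2 to 38.3 CPM with SMARTA cells (log2 fold 0.19 ± 0.10, edgeR adjusted p = 0.26).

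Ccr2, the receptor for CCL2 on monocytes and on activated T cells, had 1 opened region of 8. It lies inside the gene, 1.25 kb past the start at chr9:124103233-124103633, and had 15.3, 18.8 and 15.9 CPM without and 37.4, 22.9 and 31.9 CPM with SMARTA cells. The groups did not overlap, the libraries with SMARTA cells spread wider, and the mean rose from 16.7 ± 1.9 to 30.7 ± 7.3 CPM (log2 fold 0.88 ± 0.18, edgeR adjusted p = 0.010). The most accessible Ccr2 region, chr9:124114753-124115153, had 28.1, 31.8 and 25.8 CPM without and 48.0, 20.8 and 34.2 CPM with SMARTA cells (log2 fold 0.27 ± 0.24, edgeR adjusted p = 0.51). There replicate 2 with SMARTA cells was the lowest library of all, and the other 2 were the highest.

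Ccr4, the receptor for CCL17 and CCL22 of type 2, regulatory and skin-homing T cells, opened at its promoter. At chr9:114496434-114496834, which covers all 250 promoter bases printed above, the libraries had 6.13, 7.11 and 9.30 CPM without and 14.1, 12.3 and 12.01 CPM with SMARTA cells. The groups did not overlap (log2 fold 0.77 ± 0.20, edgeR adjusted p = 0.031). A weak region 1.81 kb outside the gene, chr9:114488102-114488502, also opened, from 1.29, 0.923 and 1.65 CPM to 2.14, 2.77 and 2.40 CPM (log2 fold 0.91 ± 0.27, edgeR adjusted p = 0.046). The most accessible Ccr4 region, chr9:114507400-114507800, had 12.7, 10.995 and 13.3 CPM without and 15.2, 6.56 and 16.1 CPM with SMARTA cells (log2 fold 0.04 ± 0.29, edgeR adjusted p = 0.95). The promoter call was lost on leaving out replicate 1 or 2 of those without SMARTA cells (adjusted p = 0.097 and 0.114) or replicate 1 or 3 of those with them (0.074 and 0.062), and the weak region's call was lost in each of the 6 repeats.

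Cxcr6, the CXCL16 receptor of resident and tumor-infiltrating CD8 T cells, had no called region among 5. By edgeR 3 of the 5 had an unadjusted p under 0.05. DESeq2 called 1 opened, as did edgeR with DESeq2 size factors. Loess scaling, or leaving out replicate 2 of the group with SMARTA cells, called 2 opened. Every other setting called none. All 5 log2 folds were positive, from 0.11 to 0.72. At the promoter, chr9:123806293-123806693, the most accessible region, the libraries had 34.3, 33.9 and 33.4 CPM without and 40.5, 33.4 and 35.8 CPM with SMARTA cells, and the groups overlapped (log2 fold 0.11 ± 0.11, edgeR adjusted p = 0.54). The region with the smallest p, chr9:123808540-123808940, had 5.93, 4.88 and 5.99 CPM and 9.22, 7.76 and 8.72 CPM, with no overlap (log2 fold 0.62 ± 0.19, edgeR adjusted p = 0.051). Cxcr6 lies wholly within the interval of Fyco1, so its 5 regions also lie in that gene, whose other 11 regions held 3 opened and 1 closed.

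**Figure D4:**
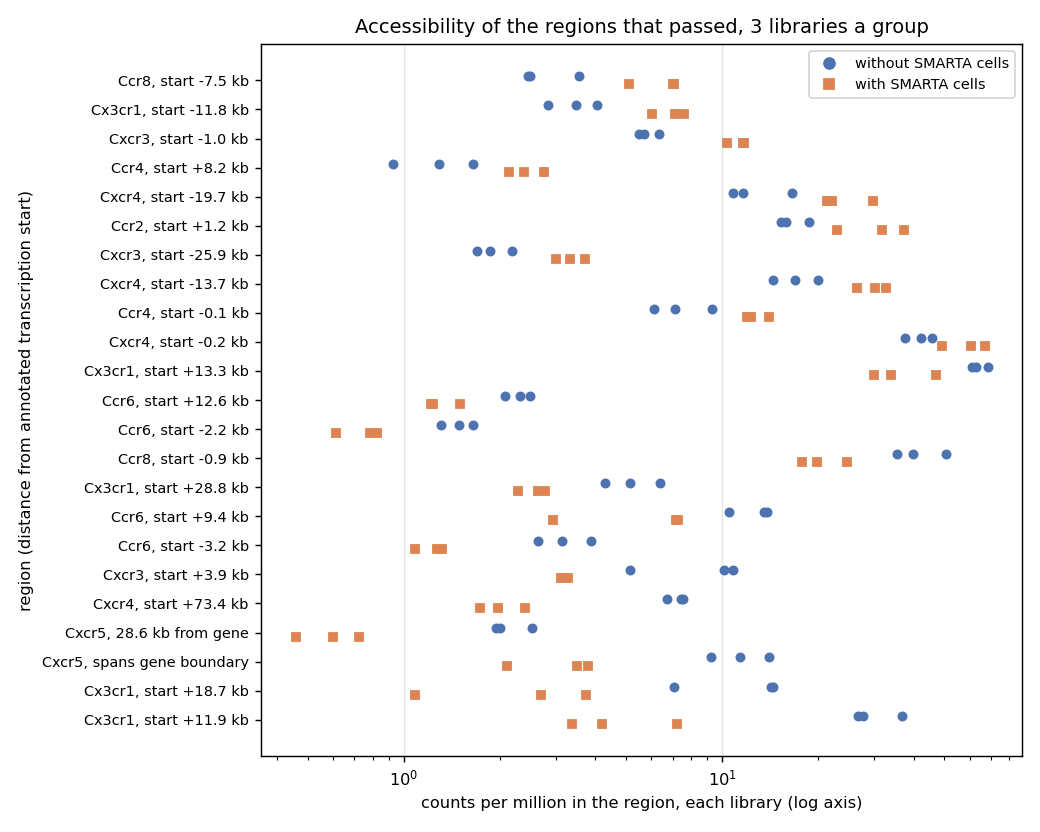
CPM on a log axis in each of the 6 libraries for the called receptor regions, 10 opened and 13 closed, with the groups in different colours. The Cx3cr1 region inside the gene shows the widest gap, from a mean of 30.4 to 4.93 CPM.

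Summed over all its regions, accessibility fell in Ccr6 and Cx3cr1 and passed the test in no other receptor. For Ccr6 the sums were 27.2, 27.7 and 28.1 CPM without and 15.8, 14.1 and 16.4 CPM with SMARTA cells, or 3.46 and 1.93 CPM per region. The groups lay far apart (log2 fold -0.84 ± 0.10, edgeR adjusted p = 0.002). For Cx3cr1 they were 196, 173 and 182 CPM and 128, 98.2 and 105 CPM, or 18.4 and 11.02 CPM per region (log2 fold -0.74 ± 0.10, edgeR adjusted p = 0.003). Over all 15647 genes with regions, 5.94% were lower and 2.27% higher by this test. Ccr8 (log2 fold -0.36 ± 0.10, adjusted p = 0.065) and Cxcr5 (-0.16 ± 0.11, 0.40) were negative, and the other receptors had positive log2 folds of the sums. Cxcr4 stood at 0.34 ± 0.12 (adjusted p = 0.11), Ccr4 at 0.25 ± 0.11 (0.18), Cxcr6 at 0.21 ± 0.09 (0.18), Ccr2 at 0.21 ± 0.18 (0.50) and Cxcr3 at 0.19 ± 0.07 (0.14).

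DESeq2 called 4 of the 9 sums, adding Ccr8 (adjusted p = 0.022) and Cxcr4 (0.036), and 4 were called without replicate 2 of the group with SMARTA cells, adding Ccr2 (0.014) and Ccr4 (0.045). Among 4805 genes with 5 or more regions, those whose 6 mean-centred log2 CPM values were nearest to Ccr6 were 2700097O09Rik and Serpinb1b, at Euclidean distances of 0.0738 and 0.108 over the 6 libraries. Nearest to Cx3cr1 were Elfn1 and Farp1, at 0.124 and 0.127.

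**Figure D5:**
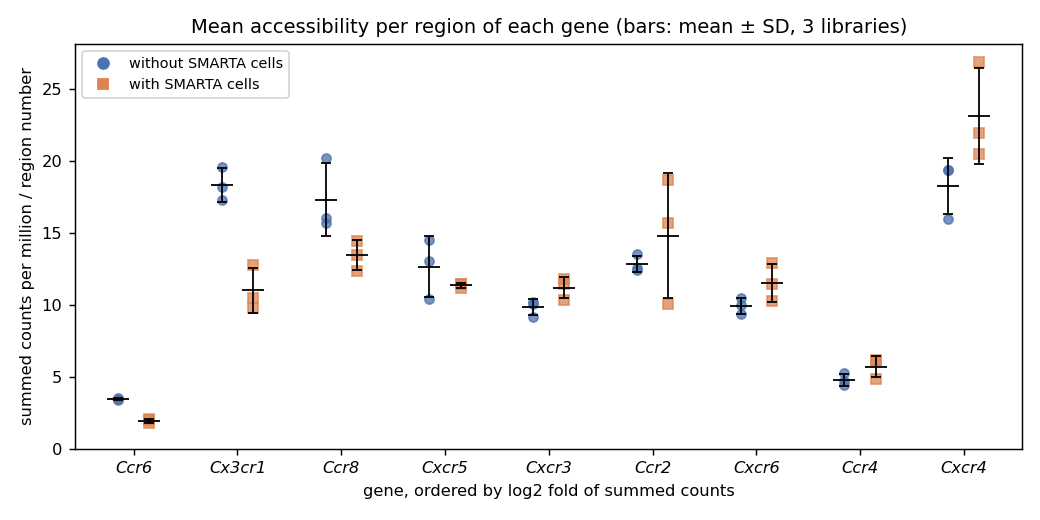
Accessibility over a receptor's regions, in CPM, for each of the 6 libraries, with group means. The groups are separate for Ccr6 (means of 3.46 CPM per region without and 1.93 with SMARTA cells) and Cx3cr1 (18.4 and 11.02 CPM per region). They are also separate for Ccr8, Cxcr4 and Cxcr3, which did not pass the test.

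The regions of a receptor did not change by a common amount in 6 of the 9 genes. edgeR's diffSpliceDGE, which tests whether a gene's regions share a fold, gave an adjusted p of 1.1e-09 for Cx3cr1, 1.5e-07 for Cxcr3, 8.5e-07 for Ccr8, 8.7e-07 for Cxcr5, 1.1e-05 for Cxcr4 and 0.00092 for Ccr6. Of all 11457 genes with 2 or more regions, 39.3% passed this test, so such calls were common. That set includes genes with fewer regions than the 5 to 13 of the receptors. A share for genes with like numbers of regions was not made. On simulated counts diffSpliceDGE made more false calls than its threshold allows. limma's diffSplice called the same 6 receptors, and 4352 of all 11457 genes. Cxcr6 (adjusted p = 0.064), Ccr4 (0.075) and Ccr2 (0.23) did not pass. Median log2 folds per gene ran from -0.82 for Ccr6, -0.59 for Cx3cr1 and -0.50 for Cxcr5, through -0.01 for Ccr8 and 0.15 for Ccr2, to 0.26 for Cxcr4, 0.27 for Cxcr3, 0.48 for Ccr4 and 0.62 for Cxcr6.

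Other chemokine receptors also held more closed than opened regions, as did the whole table (10.4% closed and 4.68% opened). Of 14 genes, 10 had regions, 76 in all, of which 3 opened (3.95%) and 14 closed (18.4%), with a median log2 fold of -0.05. Ccr7, which brings naive and central memory T cells to lymph nodes, had 4 closed regions of 15, the strongest with a log2 fold of -3.41 ± 0.31 (edgeR adjusted p = 0.00027). Ccrl2, an atypical receptor that binds chemerin, had 4 closed of 8 (strongest -2.59 ± 0.26, edgeR adjusted p = 0.00035), and Ackr2, a scavenger of inflammatory CC chemokines, 2 closed of 5 (strongest -1.65 ± 0.25, edgeR adjusted p = 0.0023). Ccr9, the CCL25 receptor of gut-homing T cells, had 2 opened and 2 closed of 6, the strongest opened at 0.73 ± 0.11 (edgeR adjusted p = 0.0022).

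Among the ligands of the 9 receptors, 11 of 15 genes had regions, and 1 of 38 regions opened (2.63%) and 3 closed (7.89%), both below the shares of all regions (median log2 fold -0.28). Ccl1, the ligand of CCR8, had 2 closed of 17 (strongest -1.995 ± 0.24, edgeR adjusted p = 0.00069). Cx3cl1, the ligand of CX3CR1, had 1 closed of 4 (-1.25 ± 0.31, edgeR adjusted p = 0.025), and Cxcl9, a ligand of CXCR3, 1 opened of 2 (0.93 ± 0.19, edgeR adjusted p = 0.010). Genes that act downstream of the receptors had 238 regions in 17 of 17 genes, 14 opened (5.88%) and 37 closed (15.5%), with a median log2 fold of 0.02. Rgs1, which shortens G protein signals, had 6 closed of 25 (strongest -2.43 ± 0.24, edgeR adjusted p = 0.00032). Elmo1, part of a Rac activator, had 8 closed and 1 opened of 39 (strongest -2.42 ± 0.32, edgeR adjusted p = 0.0011). The strongest regions of Pik3r5, a regulatory subunit of PI3K gamma, and of Gnai3, an inhibitory G protein subunit, closed too, with log2 folds of -1.47 ± 0.22 and -1.75 ± 0.27 (edgeR adjusted p = 0.0022 and 0.0023).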

How the data were processed

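The authors deposited a table of raw, whole-number counts of reads over 74686 regions by 6 libraries. The peak lists they deposited, 1 per library, give each peak's score, summit, fold enrichment (a ratio) and p and q as −log10 values. Per the submitters' processing notes, BWA 0.7.17, SAMtools 1.8, Picard 2.18.9, MACS2 2.1.1, DiffBind 3.4.11 and GRCm38 were used. What each did, duplicate removal and any read shift for the transposase: not given in the sources used here. Duplicates left in would inflate counts. Groups, replicates and count columns were matched by title and library name.

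Regions were assigned by RefSeq GRCm38.p6 protein-coding genes (1 base of overlap, the shortest gene where several hold a region, otherwise the nearest within 100 kb): 46925 inside, 24281 between genes, 3480 unassigned. Counts were tested in edgeR 4.0.16 (R 4.3.3) with TMM scaling, filterByExpr (0 regions removed), glmQLFit and glmQLFTest, and Benjamini-Hochberg adjustment over all regions, or over all genes for counts summed per gene. SE is the absolute log2 fold divided by the root of F. CPM are counts divided by the TMM-scaled library size. The biological coefficient of variation was 18.0%. Unequal change within genes was tested with diffSpliceDGE, and, added after seeing the data, with limma 3.58.1 diffSplice on voom values, because diffSpliceDGE made more false calls on simulated counts than its threshold allows. DESeq2 1.42.0 served as an alternative. Named were every called region, and per gene the smallest p, the most accessible and the one nearest the start, and in other lists up to 4 genes by smallest adjusted p. For each receptor whose sum was called, the 2 genes with the nearest pattern were named. Peaks overlapped a region by 1 base or more and were only counted. Members and lists were chosen with earlier results of these data known.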

Additional observations from a re-analysis of the deposited data

How the results depend on the processing

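The values for single regions and genes were repeated under every alternative they allow: 587 repeats kept direction and side of the threshold, 48 lost and 18 gained a call, and 7 changed sign, none of them called before or after. The sign changed at the most accessible regions of 3 receptors. With 1 library left out, log2 folds ran from -0.00185 to 0.217 at that of Cxcr5, from -0.0486 to 0.522 at that of Ccr2 and from -0.159 to 0.341 at that of Ccr4. The last was -0.0582 under the replicate block and -0.0100 when scaled by total counts. The opened receptor regions, 10, were 5 to 14 when 1 library was left out and 2 with gene bodies alone. The closed ones, 13, were 10 to 13 when 1 library was left out and 7 with gene bodies alone, where 26 regions remain. In the whole table, 3497 opened regions became 1224 to 4259 when 1 library was left out, and 7767 closed ones 4403 to 8410. Receptors called by summed counts, 2, were 4 with DESeq2's Wald test and 2 to 4 when 1 library was left out. They were 3 with loess scaling (Ccr8 added, adjusted p = 0.039), with regions within 20 kb (Cxcr4, 0.025) and with gene bodies alone (Ccr2, 0.018, log2 fold 0.82 beside 0.21). Opened and closed counts were 11 and 13 with DESeq2 size factors, 9 and 14 with total-count scaling, 14 and 11 with loess scaling, 11 and 11 with DESeq2, and 10 and 13 with either filter on low counts. Same-numbered libraries deviated with correlations of -0.0200, -0.0776 and 0.0764, so the numbers were not taken as pairs. With the replicate block 10 regions opened, 11 closed, 3 summed counts and 7 genes of unequal change were called. Weak regions, under about 3 CPM, rest on few counts. The cause of these shifts was not tested.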
